A study of Mus musculus with 6 samples.

Results

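Basal corneal epithelial cells, the innermost layer of the epithelium that covers the cornea, were described in 6 droplet libraries of single cells from naive, untreated female mice. A cell counted as basal when its barcode had at least 500 UMIs (distinct RNA molecules counted), at least 250 genes and at most 20% mitochondrial UMIs. It also needed at least 5 UMIs of the epithelial genes Krt12, Krt5, Perp and Dapl1 together, at least 3 times its UMIs of the stromal genes Dcn, Lum, Kera and Col1a2. The basal condition itself was at least 2 UMIs of Krt14 and at least 1 of Col17a1 or Itgb4. Cells with more than 1 UMI of the superficial genes Asprv1 and Prss22, or with more than 1 of the cycling genes Mki67, Top2a, Cenpf, Ube2c and Birc5, were left out. The members were thus selected on measured UMIs of these 18 genes. The rule found 1351 basal cells among 63021 cells, of which 15317 met the epithelial condition. Of the remaining epithelial cells, 6662 were superficial, 761 were cycling and 6543 were neither. The last group is called other epithelial cells below.

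The mice lacked the microRNA cluster of miR-183, miR-96 and miR-182 (genotype miR-183CGT/GT, called KO) or were wild-type (WT) littermates, matched for age and sex, on a mixed 129S2 and C57BL/6 background. Whole corneas, cut anterior to the limbus, were taken at 2 and at 6 months of age. At 6 months, cells with the leukocyte surface protein CD45 were also enriched on magnetic beads, and this preparation is called CRIC (cornea-resident immune cells). Each of the 6 combinations held 1 library, no source used here names the animals in it, and p-values below therefore measure only the spread between these libraries, which may be technical. The basal cells numbered 238 and 387 in the WT and KO corneas at 2 months, 405 and 201 in those at 6 months, and 43 and 77 in the CRIC WT and KO libraries.

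The basal layer rests on a basement membrane, to which hemidesmosomes (junctions built from integrin alpha 6 beta 4, collagen XVII and plectin) fasten it. Its cells divide, and their progeny move outward and form the wing and superficial layers. They are replaced in turn from stem cells at the limbus, the rim of the cornea, which the dissection left out. The miR-183 cluster is best known from sensory neurons and hair cells. A microRNA lowers the mRNAs whose 3' untranslated region pairs with its seed, the bases 2 to 8 at its 5' end.

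The 3 microRNAs that the KO mice lack are shown first, with their seeds in capitals, because the genotype comparison is a comparison of their loss. They come from RefSeq (GRCm38.p6) and lie on the minus strand of chromosome 6, at chr6:30169711-30169732 (miR-183), chr6:30169506-30169528 (miR-96) and chr6:30165962-30165986 (miR-182).
mmu-miR-183-5p: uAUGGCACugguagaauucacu
mmu-miR-96-5p: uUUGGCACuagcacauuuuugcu
mmu-miR-182-5p: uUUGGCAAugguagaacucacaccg
The seeds of miR-96 and miR-182 differ from each other only in their last base. The cluster is not a feature of the count matrices, so its deletion could not be checked in these libraries.

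The libraries held between 9827933 and 117613142 UMIs. Median UMIs per basal cell were 4338 and 4907 in the WT and KO corneas at 2 months, 6659 and 3233 at 6 months, and 3996 and 6881 in the CRIC WT and KO libraries. The KO cornea at 6 months was thus the shallowest library for these cells. RNA from barcodes of at most 100 UMIs, taken as free RNA, made up between 7.58% and 16.2% of the UMIs of a library. The labels call all mice female, but the KO library at 2 months held 111 UMIs of Y-linked genes in its basal cells and the 5 other libraries held 0. In that library 67 basal cells had a Y-linked UMI without Xist, 225 had Xist without a Y-linked UMI, 0 had both and 95 had neither. The tests of age, genotype and class were therefore repeated over cells with Xist and no Y-linked UMI, and values from that repeat stand beside the results. No barcode was basal in more than 1 library, and 7 basal barcodes also belonged to a cell of another kind elsewhere.

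Levels are given in CPM, the UMIs of a gene summed over the basal cells of a library divided by all UMIs of those cells and scaled to 1e6. Krt14, Col17a1 and Itgb4 chose the cells, so their levels are a description. Krt14, a keratin of basal layers, stood at 867 and 1084 CPM in the 2-month WT and KO corneas, at 1085 and 1795 in the 6-month corneas and at 1101 and 1152 in the CRIC libraries. In other epithelial cells it lay between 23.3 and 129.9 CPM. The highest basal value belonged to the KO cornea at 6 months, the shallowest library for these cells. The part of depth in this value was not tested. Collagen XVII (Col17a1) lay between 700.3 and 1228 CPM in basal cells and between 323 and 862 CPM in other epithelial cells. Integrin beta 4 (Itgb4) lay between 193 and 292 CPM against 44.3 to 147 CPM. Wfdc2, a small secreted protein with a protease-inhibitor fold, was no part of the rule. It stood at 589.7 and 734 CPM at 2 months, 668 and 642 CPM at 6 months and 478 and 626 CPM in the CRIC libraries, against 187, 244, 272, 267, 123 and 72.6 CPM in other epithelial cells of the same libraries. After each cell was thinned to 1500 UMIs, Wfdc2 was detected in 52.4% to 61.0% of basal cells and in 10.0% to 30.8% of other epithelial cells. In free RNA it lay between 15.8 and 87.0 CPM, below both classes in each library. Of the 4 markers of the label, Wfdc2 is the only one that the rule left unused.

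The thresholds cut through a gradient. Over all libraries, Wfdc2 stood at 575 CPM in the 326 basal cells with 2 UMIs of Krt14, just inside the limit, and at 489 CPM in the 616 cells with 1 UMI that met every other condition. Cells with 0 UMIs of Krt14 (3974 cells) had 212 CPM, and basal cells with 5 or more (650 cells) had 685 CPM. The 60 cells that failed only because neither Col17a1 nor Itgb4 was detected had 561 CPM of Wfdc2. The 404 cells that failed on the cycling genes had 578 CPM, and no limit on superficial UMIs was set for them. The 96 cells that failed only on the stromal genes had less, at 329 CPM. The CRIC KO library differed from these sums and rested on few cells. Its 9 basal cells with 2 UMIs of Krt14 had 218 CPM (5 UMIs of Wfdc2), and its 27 cells with 1 UMI had 217 CPM, so this limit showed no step there. Its 6 cells with neither Col17a1 nor Itgb4 had 220.3 CPM (4 UMIs). All its basal cells had 626 CPM, and the 61 with 5 or more UMIs of Krt14 had 631 CPM. The WT cornea at 6 months also showed hardly a step at this limit. Its 71 cells with 2 UMIs of Krt14 had 504 CPM, and its 128 cells with 1 UMI had 497 CPM.

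Markers of other cell types were low in most basal cells, and the CRIC libraries held the exceptions. Summed over 10 keratocyte genes, basal cells held between 4.83 and 148.7 CPM against 1711.5 to 8777 CPM in free RNA, and collagen III (Col3a1) was at 0 in all 6 libraries. Summed over 14 immune genes, they held between 4.83 and 63.9 CPM in 5 libraries, with 7 to 13 of the genes at 0. The CRIC KO library stood apart at 1763 CPM, with 1 of the 14 genes at 0, against 16307.5 CPM in free RNA. There, 15 of 77 basal cells (19.5%) had a UMI of Ptprc, Tyrobp, Fcer1g, Lyz2 or the C1q genes, against 0 to 3 cells in each of the other libraries. Summed over 6 conjunctival genes, the CRIC WT library was highest at 120.7 CPM against 93.23 CPM in free RNA, and the others held 4.64 to 31.94 CPM. Superficial genes summed to 358 to 599 CPM against 3827 to 28390 CPM in free RNA. All 4 vascular endothelial genes were at 0 in 5 libraries.

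What else set basal cells apart from other epithelial cells is a description, since the rule chose the cells on this contrast. The serine synthesis enzyme Phgdh, the cytokine receptor Tnfrsf12a, the matrix protein Spon2 and several matrix receptors were higher in basal cells of every library. Of 8453 genes tested, 10.9% were higher in basal than in other epithelial cells in all 6 libraries. A gene with no UMI in a class of some library could not count as higher. Ranked by the lowest of the 6 ratios, Phgdh, which commits glycolytic carbon to serine, came first. Phgdh stood at 79.2 and 168 CPM in the 2-month WT and KO corneas, 173 and 129 CPM in the 6-month corneas and 111 and 168 CPM in the CRIC libraries. Its lowest log2 ratio over other epithelial cells was 1.53. The lowest ratio of Tnfrsf12a, the receptor of the cytokine TWEAK, was 1.40, and that of Spon2, a secreted matrix protein, was 1.37. Ctnnal1 (1.19), the ferritin light chain Ftl1 (1.14), the neuropeptide Y gene Npy (1.12), the laminin receptor Bcam (1.10) and the Wnt ligand Wnt10a (1.08) followed. Ftl1 has near-identical copies in the genome, so its count is uncertain. Hells, a chromatin remodeler, and Dut, which clears dUTP, had lowest ratios of 1.02 and 0.97. The rule left out only cells with more than 1 of the cycling genes, so some dividing cells may remain. Their part in these ratios was not tested. Integrin alpha 3 (Itga3, 0.99), the matrix protein Sparc (0.99), Efemp1 (0.90) and integrin beta 1 (Itgb1, 0.89) completed the first 15 genes. Sparc stood at 315 to 2689 CPM in free RNA, above its 135 to 211 CPM in basal cells; the part of free RNA in its level was not tested.

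**Figure D1:**
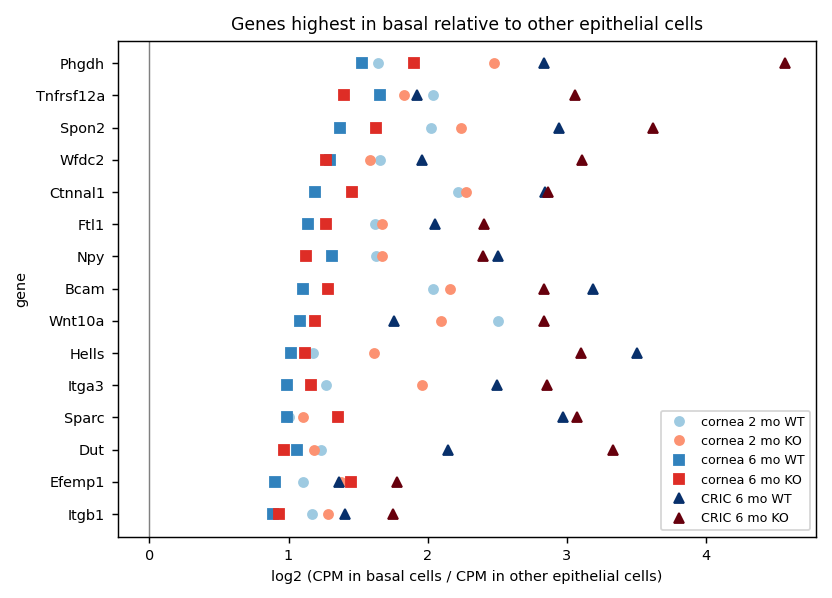
Log2 ratio of CPM in basal over CPM in other epithelial cells for the 15 genes with the largest lowest ratio, 1 point per library (color and shape give tissue, age and genotype). Every point lies right of 0, and for most genes the ratios of the 6-month cornea libraries are the smallest, with Phgdh at 1.53 or more.

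By function, genes of adhesion to the basement membrane, replication and energy metabolism were often higher in basal cells, and junction and differentiation genes seldom were. Of the 19 genes of hemidesmosome and basement membrane, 18 were tested and 9 were higher in basal cells of all 6 libraries. Integrin alpha 6 (Itga6), the partner of integrin beta 4, ranged from 166 to 291 CPM against 114 to 210.3 CPM in other epithelial cells. Dystonin (Dst) and plectin (Plec), the plaque proteins that tie hemidesmosomes to keratin, were not higher throughout: Dst stood at 370.5 CPM in basal and 373 CPM in other cells of the WT cornea at 2 months. Of 19 replication genes tested, 10 were higher in all libraries. The helicase subunit Mcm5, at 8.06 to 24.1 CPM against 0 to 7.02 CPM, is not among them, because a ratio needed UMIs in both classes of each library. Of 14 genes of corneal crystallins and energy metabolism, 8 were higher, led by Aldh3a1, the abundant aldehyde dehydrogenase of the cornea, at 12640.1 to 17984 CPM against 8811 to 14059.5 CPM. Limbal or progenitor genes gave 9 of 13 and early response genes 9 of 19. Only 1 of 17 junction genes, the gap junction gene Gja1, was higher throughout (174 to 354 CPM against 79.7 to 223 CPM). None of 12 suprabasal differentiation genes and none of 4 keratins tested was.

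Transcription factors split. Trp63, the p63 gene that maintains basal epithelia, was higher in basal cells of all libraries and stood at 222 and 230.3 CPM at 2 months, 219 and 177 CPM at 6 months and 135 and 118 CPM in the CRIC libraries. Pax6, the eye field regulator, was lower in basal cells than in other epithelial cells of each library, at 367 to 526 CPM against 465 to 572 CPM. Of the 22 factors tested, 4 were higher in basal cells of all 6 libraries. Krt12, the cornea-specific keratin, stood at 14925 to 20534 CPM in basal and 23437 to 29754 CPM in other epithelial cells. Krt15, a keratin often used for limbal progenitors, was at 6.06 to 22.3 CPM in the 4 cornea libraries, below its 27.5 to 158 CPM in other epithelial cells. In the CRIC WT library it reached 560.3 CPM, and 113 of those 116 UMIs lay in 3 cells.

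The 15 most abundant messages outside mitochondrial and ribosomal protein genes included Gm42418, which overlaps ribosomal RNA, the nuclear RNA Malat1, Krt12, Aldh3a1, Tmsb4x, S100a6, the crystallin enzyme Tkt, Lypd2, Dapl1 and Krt5. Tkt, a transketolase, stood at 4289 to 8791 CPM. Gm42418 lay between 18765 and 58201 CPM in basal cells and between 102939 and 310535 CPM in free RNA. Cells of a library also differed among themselves. At 1500 UMIs per cell, the ratio of variance to mean, which is near 1 for pure counting, was at least 2 in every cornea library for Gm42418, Malat1, Lars2, Slurp1, Aldh3a1, Tmsb4x, S100a6, Gsta4, Aqp5 and Txn1. Slurp1, a secreted Ly6 protein of the corneal surface, had a ratio of 2.77 to 4.35 over the 6 libraries. Gsta4, a glutathione transferase against lipid aldehydes, had 2.31 to 3.84. Aqp5, the water channel of the corneal epithelium, had 1.69 to 3.19. None of these spread measures was set against another cell class.

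The basal share of epithelial cells was lowest in the WT cornea at 2 months and highest in the WT cornea at 6 months. It was 6.69% (exact binomial 95% interval 5.89 to 7.56) and 7.98% (7.23 to 8.78) in the WT and KO corneas at 2 months, and 12.4% (11.3 to 13.6) and 9.59% (8.37 to 10.9) at 6 months. In the CRIC WT and KO libraries it was 7.18% (5.24 to 9.55) and 8.14% (6.48 to 10.1). All such intervals cover counting error only. KO minus WT was 1.29 percentage points at 2 months, -2.79 at 6 months and 0.961 in the CRIC pair, so its sign was not the same in the 3 pairs. The share depends on depth: when every cell was thinned to 1500 UMIs before the rule, the shares were 2.74%, 4.29%, 8.34%, 6.64%, 4.62% and 4.72% in the same order. Both 6-month corneas stayed above both 2-month corneas. With 1 library per group there is no test of a share.

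**Figure D2:**
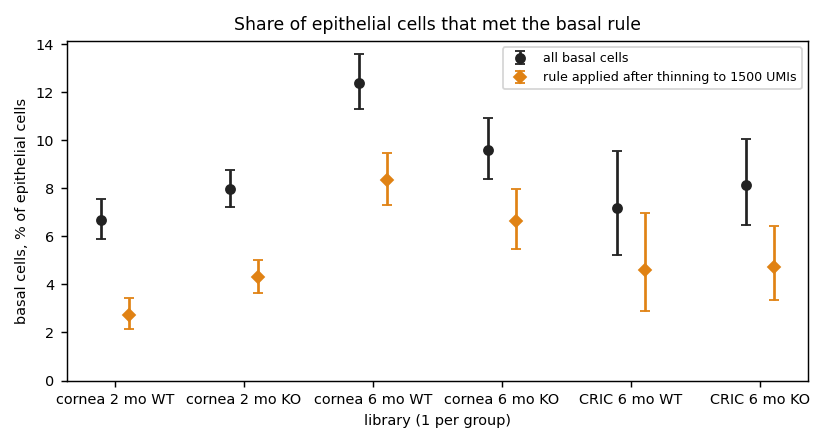
Basal cells as a percentage of epithelial cells in each library (black circles), and after thinning each cell to 1500 UMIs before the rule (orange diamonds), with exact binomial 95% intervals. The WT cornea at 6 months is highest by both measures, at 12.4% and 8.34%.

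The first comparison asked what differed in basal cells between 2 and 6 months of age, with genotype in the same fit over the 4 cornea libraries. Klf6, Fosb, Nfkbia and Cxcl1 stood higher in both 6-month corneas than in both 2-month corneas, and the general transcription factor subunit Taf10 and the signaling adaptor Asap2 stood lower, but no gene passed the test. Of 8453 genes, 0 passed an adjusted p under 0.05 in edgeR's quasi-likelihood test with Benjamini-Hochberg adjustment (0%), 424 had an unadjusted p under 0.05 (5.02%). DESeq2, run without the count filter, called 0 of 14614 genes, and 60 of these had an unadjusted p under 0.05 there. The fit had 1 residual degree of freedom, and in simulated counts it recovered 69% of 2-fold and 98% of 4-fold changes, with 6 false calls. Those counts gave all genes the same dispersion and held no joint effect of age and genotype. Recovery in the data may therefore be lower. Several of the values below did pass under other settings, which are named.

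Klf6, an injury-responsive zinc finger factor, stood at 67.0 and 64.5 CPM in the WT and KO corneas at 2 months. At 6 months it stood at 183 and 135 CPM in the corneas and at 184 and 121 CPM in the CRIC libraries. The 6-month libraries were all above the 2-month ones. The log2 difference of 6 minus 2 months was 1.32 with a standard error of 0.186 (edgeR's quasi-likelihood test, adjusted p = 0.191). It was 1.23 in cells with Xist and no Y-linked UMI, and it was 0.224 when cells were thinned to 1500 UMIs before the rule. In other epithelial cells Klf6 stood at 102, 88.9, 155 and 157 CPM in the 4 cornea libraries. Fosb, a partner of Jun in the AP-1 factor, gave 59.1 and 67.0 CPM at 2 months and 189 and 113 CPM at 6 months, a log2 difference of 1.29 with a standard error of 0.224 (edgeR's quasi-likelihood test, adjusted p = 0.253). Thinned cells gave Fosb 1.27. Atf3, a stress-induced factor, stood at 42.6 and 94.2 CPM at 2 months and 275 and 104 CPM at 6 months, so that the WT cornea at 6 months carried the log2 difference of 1.46.

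Nfkbia, which encodes the inhibitor that NF-kB induces against itself, stood at 135 and 148 CPM at 2 months and 296 and 278 CPM at 6 months. The log2 difference was 1.08 with a standard error of 0.17 (edgeR's quasi-likelihood test, adjusted p = 0.204). The CRIC WT library of 6 months had 106 CPM, at the level of the 2-month corneas, and CRIC KO had 205 CPM. Other epithelial cells of the corneas had 146, 133, 231 and 272 CPM, and free RNA had 246, 215, 516 and 399 CPM, which moved with the basal level; its part was not tested. Nfkbiz, a nuclear relative that modulates NF-kB targets, showed 51.3 and 47.9 CPM against 98.0 and 83.2 CPM, and 33.8 and 63.9 CPM in the CRIC libraries. The chemokine Cxcl1, which draws neutrophils, was low in all libraries, at 7.83 and 16.6 CPM at 2 months and 61.7 and 40.1 CPM at 6 months. In the WT cornea at 6 months its 173 UMIs came from 59 cells, with 48 UMIs in 3 of them. Free RNA held more Cxcl1 than basal cells in each cornea library, at 47.2, 35.3, 114 and 176 CPM.

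Cxcl1 and Nfkbia also share a sequence feature. In the 250 bases before their RefSeq starts (GRCm38.p6), the letters of an NF-kB site (GGG, any 2 bases, then TTTCC), searched on both strands, occurred in 7 of the 21 cytokine and antimicrobial genes with an entry (33.33%) and in 447 of 27025 genes (1.65%). That list was chosen for what its genes are known for and holds genes that NF-kB induces, such as Nfkbia. Its higher share is therefore a description and not a test. The motif was chosen after the values were seen. The 160 bases before each start are shown with matches on either strand in capitals, at chr5:90891085-90891244 on the plus strand for Cxcl1 and chr12:55492648-55492807 on the minus strand for Nfkbia.
Cxcl1: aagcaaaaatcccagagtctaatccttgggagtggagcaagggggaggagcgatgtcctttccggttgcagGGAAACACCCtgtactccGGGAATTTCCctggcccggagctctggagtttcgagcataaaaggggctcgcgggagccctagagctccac
Nfkbia: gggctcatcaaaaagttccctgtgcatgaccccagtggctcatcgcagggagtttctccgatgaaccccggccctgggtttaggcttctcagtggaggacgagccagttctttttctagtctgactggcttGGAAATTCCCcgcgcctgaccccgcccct
Cxcl1 held 2 matches in this window and Nfkbia held 1. A match describes letters and is not a measured binding site.

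Among genes that stood lower at 6 months, Taf10 gave 171 and 157 CPM at 2 months and 47.8 and 69.8 CPM at 6 months. Its CRIC libraries, also of 6 months, had 130.4 and 208 CPM, so the lower level belonged to the 6-month corneas and not to all 6-month libraries. Other epithelial cells had 156, 164, 48.5 and 50.3 CPM. The log2 difference of Taf10 in basal cells was -1.50 with a standard error of 0.227 (edgeR's quasi-likelihood test, adjusted p = 0.191). Asap2, an Arf GTPase-activating protein of focal adhesions, stood at 87.8 and 80.6 CPM against 32.4 and 25.3 CPM, and again at 82.1 and 62.5 CPM in the CRIC libraries. Bri3 gave 116 and 168 CPM against 57.0 and 53.5 CPM, and 86.9 and 110.5 CPM in the CRIC libraries. The secreted Wnt antagonist Sfrp1 stood at 328 and 284 CPM at 2 months and 204 and 107 CPM at 6 months, a log2 difference of -0.95. Its CRIC libraries had 266 and 269 CPM. Age and preparation cannot be told apart for genes whose CRIC values did not follow the 6-month corneas. In cells with Xist and no Y-linked UMI, the log2 differences were 1.23 for Fosb, 1.76 for Atf3, 1.0 for Nfkbia and 1.80 for Cxcl1, the last against 2.08 in all basal cells. They were -1.51 for Taf10, -1.56 for Asap2, -1.31 for Bri3 and -0.97 for Sfrp1, and 0 genes passed there, with 381 at an unadjusted p under 0.05.

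**Figure D3:**
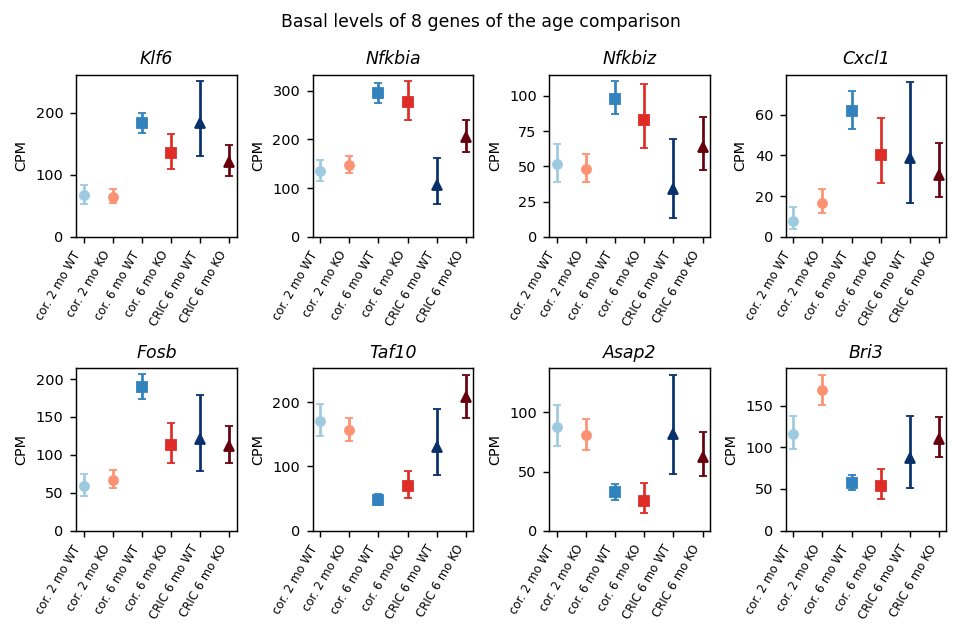
CPM of 8 genes in the basal cells of each library, with exact Poisson 95% intervals (counting error only). Klf6, Fosb and Cxcl1 are higher in the 6-month than in the 2-month corneas, Taf10, Asap2 and Bri3 are lower, and the CRIC libraries of 6 months follow for Klf6 and Cxcl1 but not for Taf10.

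With other settings some of these passed. With RLE scaling in place of TMM, 8 genes were called for age: Klf6, Fosb, Nfkbia, Cxcl1, Ly6a, Taf10, Asap2 and Bri3. The same 8 were called with a 10% mitochondrial limit. Leaving out, for each gene, the 4% of cells with the most UMIs of it gave 18 calls, Klf6, Taf10, Asap2, Bri3, Nfkbia, Nfkbiz, Fosb, Atf3 and Sfrp1 among them. Thinning before the rule gave 5 calls, of which Asap2 alone is one of these genes. Without the KO cornea at 2 months the calls were Atf3, Cxcl1 and Taf10 (0.0359% of genes), and without the WT cornea at 6 months there were 179 (2.14%).

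Gene lists for the tissue, chosen with earlier results of these data known, were then counted. Of the cytokine and antimicrobial genes, 8 of 26 on the matrix passed the count filter. All 8 were higher at 6 months, 5 with an unadjusted p under 0.05 (2.57% of all genes), with a median log2 difference of 0.75 against -0.00 over all genes tested. Of 19 early response genes tested, 14 were higher and 6 had an unadjusted p under 0.05 in that direction, with a median of 0.22. The first list holds Nfkbia, Nfkbiz and Cxcl1 and the second Klf6, Fosb and Atf3, all named above. These counts are therefore no separate evidence. Keratins (4 of 4 higher, median 0.36), limbal or progenitor genes (10 of 13, 0.28) and energy genes (12 of 14, 0.21) also leaned higher at 6 months. Of 10 Notch genes, 7 were lower, with a median of -0.28, and Wnt genes had a median of -0.19. In cells with Xist and no Y-linked UMI the medians were 0.62 for 7 tested cytokine and antimicrobial genes, 0.20 for early response, -0.34 for Notch and -0.20 for Wnt genes. Over all genes, 21.3% were higher at 6 months in both genotypes and 29.5% were lower in both. Hexokinase 2 (Hk2), the first enzyme of glycolysis, stood at 30.4 and 43.3 CPM at 2 months and 72.0 and 68.3 CPM at 6 months, but its log2 difference of 1.0 was 0.117 in thinned cells.

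**Figure D4:**
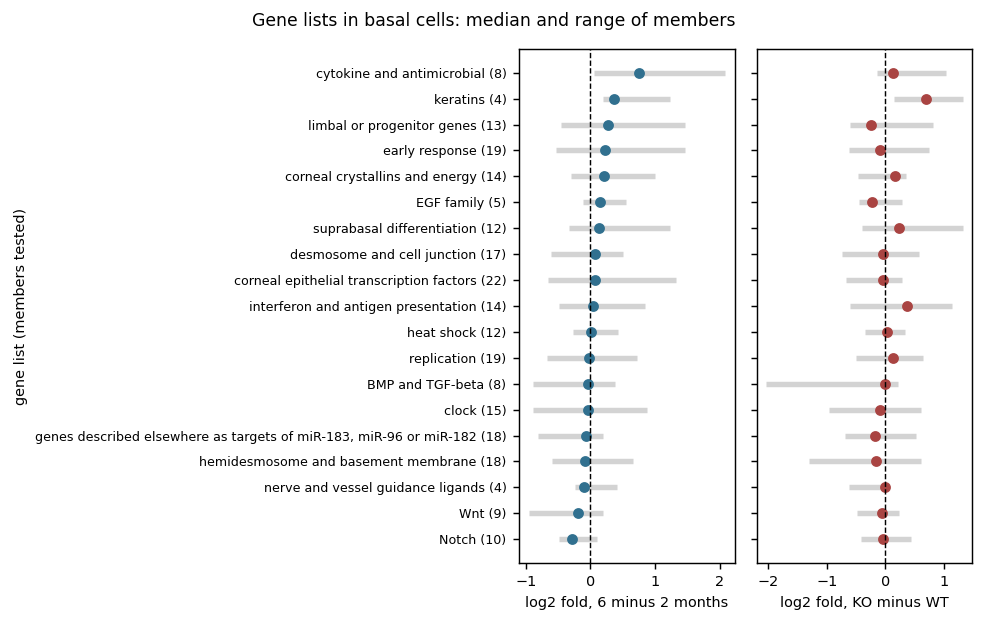
Median (points) and range (grey bars) of the log2 differences of the tested members of each gene list in basal cells, for 6 minus 2 months (left) and KO minus WT (right). The cytokine and antimicrobial list has the highest median for age, at 0.75, and no member of any list passed either test.

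Whether age acted differently on basal than on other epithelial cells was tested with a class-by-age term over both classes of the 4 cornea libraries. Of 9883 genes, 29 passed (0.293%), 19 with a higher (0.192%) and 10 with a lower (0.101%) age difference in basal cells. The calls include Krt14 and Itgb4, which chose the cells, and the part of the rule in the other calls was not tested. Among the lower terms, integrin alpha 2 (Itga2), a collagen receptor, stood at 47.8 and 49.4 CPM in basal cells at 2 months and 46.0 and 19.3 CPM at 6 months, against 12.8, 9.20, 30.0 and 15.2 CPM in other epithelial cells. Its term was -1.57 with a standard error of 0.349 (edgeR's quasi-likelihood test with Benjamini-Hochberg adjustment, adjusted p = 0.00575). The basal excess of Itga2 was thus narrower at 6 months, in the WT cornea through other epithelial cells. The same form held for Jag2, a Notch ligand (term -1.02), at 94.8, 104, 80.9 and 60.9 CPM in basal and 27.8, 30.9, 56.1 and 28.7 CPM in other cells. The term of Wnt10a was -1.23, of Bcam -0.92, of the collagen-binding receptor Antxr1 -0.81 and of the cell adhesion gene Lsamp -0.70. Of these 6 genes, Antxr1 and Lsamp also passed when the 4% of cells with the most UMIs of a gene were left out. None of the 6 passed when cells were thinned before the rule. Itga2, Wnt10a and Lsamp lost the call in cells with Xist and no Y-linked UMI.

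The 6 genes named among the higher terms were all lower in basal than in other epithelial cells at 2 months. Krt6a, a keratin of stressed and migrating epithelium, stood at 37.4 and 23.2 CPM in basal cells at 2 months and 23.5 and 150.1 CPM at 6 months, so that its basal level was high in the KO cornea only. Its term was 1.66 with a standard error of 0.221 (edgeR's quasi-likelihood test, adjusted p = 2.72e-10). It was 0.311 without the KO cornea at 6 months. That fit, like the others without this library below, held no class-by-genotype term. Krt6a has a near-identical neighbour, Krt6b, and its count is uncertain. BC100530, a member of the stefin A family of protease inhibitors with near-identical copies, showed 49.6, 41.8, 73.8 and 232 CPM in basal cells, with a term of 1.58 that was 0.494 without the same library. H60c, a ligand of a killer-cell receptor with related family genes, stood at 9.57, 6.05, 12.8 and 29.7 CPM (term 2.18). The terms of the membrane mucin Muc15, the small membrane protein gene Pdzk1ip1 and the lipase cofactor Abhd5 were 1.26, 1.25 and 1.19, and none of these 3 passed without the KO cornea at 6 months. Muc15 (edgeR's quasi-likelihood test, adjusted p = 0.151) and Abhd5 (adjusted p = 0.2) also lost the call in cells with Xist and no Y-linked UMI. Cdkn1a, which encodes the cell cycle inhibitor p21, had a term of 0.97 (edgeR's quasi-likelihood test, adjusted p = 5.51e-07). Basal Cdkn1a stood at 124 and 162 CPM at 2 months and 193 and 259 CPM at 6 months, while other epithelial cells had 348, 408, 290.3 and 313 CPM. Free RNA of the corneas held Krt6a at 243 to 491 CPM and BC100530 at 691 to 1206 CPM, and its part in these terms was not tested.

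The second comparison, KO against WT with age in the same fit, asked what the loss of the miR-183 cluster does in basal cells. No gene passed in the corneas: 0 of 8453 in edgeR's quasi-likelihood test with Benjamini-Hochberg adjustment (0%), with 323 at an unadjusted p under 0.05 (3.82%). DESeq2, run without the count filter, also called 0 of 14614 genes, and 17 of these had an unadjusted p under 0.05 there. In simulated counts, with the limits given for age, the same fit recovered 71% of 2-fold changes, with 7 false calls. Fgfbp1, a secreted carrier that frees fibroblast growth factors from the matrix, is named for its values, which were seen first. It stood at 132 and 201 CPM in the WT and KO corneas at 2 months, 110.5 and 281 CPM at 6 months and 77.3 and 257 CPM in the CRIC libraries. The KO library was the higher one in each of the 3 pairs. Over all genes, KO was above WT in all 3 pairs for 10% and below it for 13.1%. The log2 difference of Fgfbp1 over the corneas was 1.03 with a standard error of 0.222 (edgeR's quasi-likelihood test, adjusted p = 0.966). It was 0.948 in cells with Xist and no Y-linked UMI, and Fgfbp1 was among the calls when Krt14 of at least 5 UMIs was required, without the low-count filter, and without the 4% of cells with the most of its UMIs.

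Some gene groups leaned with genotype in the corneas. The highest medians were those of keratins (4 of 4 tested higher in KO, median log2 0.69), interferon and antigen presentation (10 of 14, 0.36) and suprabasal differentiation (9 of 12, 0.24). Of 14 energy genes, 12 were higher in KO and 7 were higher in all 3 pairs, with a median log2 difference of 0.17 against 0.00 over all genes. Gapdh stood at 556 and 647 CPM at 2 months, 634 and 834 CPM at 6 months and 546 and 888 CPM in the CRIC libraries, with KO the higher in each pair. Pyruvate kinase (Pkm) gave 236 and 267, 318 and 401, and 203 and 314 CPM. Of 18 hemidesmosome and basement membrane genes, 12 were lower in KO, 4 of them in all 3 pairs, with a median of -0.16. Frem2, a protein of the basement membrane complex of Fraser syndrome, was at 73.1 and 57.5 CPM at 2 months and 67.4 and 28.2 CPM at 6 months (log2 -0.66), but at 24.1 and 31.9 CPM in the CRIC pair. Of 13 limbal or progenitor genes, 10 were lower, with a median of -0.25. Among them the transporter Abcg2 stood at 76.5 and 57.5 CPM, 68.5 and 38.6 CPM, and 48.3 and 46.6 CPM. Cldn7, a tight junction claudin, ran the other way, at 224 and 296, 272 and 425, and 275 and 454 CPM (log2 0.58). In cells with Xist and no Y-linked UMI the medians of the energy, hemidesmosome and limbal lists were 0.12, -0.14 and -0.28. Those of the keratin (3 tested), interferon and suprabasal lists were 1.005, 0.46 and 0.20 there. None of these genes passed, and the KO cornea at 6 months, the shallowest library, had the lowest Frem2 and Abcg2 of the corneas.

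Genes with a genotype difference that was not the same in basal and in other epithelial cells numbered 7 of 9883 (0.0708%), all with a higher term in basal cells. They were S100a9 (3.16), Krt15 (2.45), Yae1d1 (1.45), BC100530 (1.33), Krt6a (1.27), Dnajc5 (1.18) and Cd74 (4.52). Cd74, the invariant chain of immune cells, lies outside the naming rule for its low level and is named to complete the count. It had 1, 20, 15 and 2 UMIs in the basal cells of the 4 corneas, and 61.6, 21.9, 54.9 and 1.76 CPM in other epithelial cells. The fits without 1 cornea that are named next held no class-by-age term. The term of S100a9 was 0.773 and did not pass without the KO cornea at 6 months, where 22 of its 32 UMIs lay in 1 cell. Krt15 had 14 of its 15 UMIs of that library in 1 cell, and its term was 1.42 without it and 1.26 without the WT cornea at 6 months, passing in neither. Dnajc5, a co-chaperone of vesicles, lost the call when any of the 4 corneas was left out, and its term was 1.07 in cells with Xist and no Y-linked UMI (edgeR's quasi-likelihood test, adjusted p = 0.461). Cd74 was not among the calls in those cells either. Yae1d1 rested on 3 cells of the KO cornea at 2 months, which held 218 of its 308 UMIs, and its term was 0.0273 in cells with Xist and no Y-linked UMI. In the fit without the KO cornea at 6 months the terms of Krt6a and BC100530 were -0.478 and -0.14. Without the 4% of cells with the most UMIs of each gene, Krt6a alone was called.

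At 6 months both a cornea and a CRIC pair were available, and a fit of KO against WT over these 2 pairs, with the pair as a block, was added after the data were seen. Interferon-induced genes were higher in the KO basal cells of both pairs, together with Fgfbp1, the alarmin S100a9 and the stress keratin Krt16. Of 6304 genes, 11 passed (0.174%), 9 of them higher in KO (0.143%). DESeq2, run on 14157 genes without the count filter, called 2, Isg15 and Ifitm3, both among the 11. When Krt14 of at least 5 UMIs was required, S100a9 was the only call. The 6-month fit had 1 residual degree of freedom, and simulated counts of this design recovered 22.2% of 2-fold and 86.9% of 4-fold changes. Fits without 1 library, here and below, held no pair block, so preparation was mixed with genotype in them. Without the CRIC KO library the only call was Krt15.

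Ifitm3, an interferon-induced membrane protein that blocks virus entry, stood at 86.3 and 291 CPM in the 6-month WT and KO corneas and at 91.8 and 506 CPM in the CRIC WT and KO libraries. At 2 months it had been 115 and 89.7 CPM. Both 6-month KO libraries were above all other libraries. The log2 difference at 6 months was 2.08 with a standard error of 0.288 (edgeR's quasi-likelihood test with Benjamini-Hochberg adjustment, adjusted p = 1.26e-09). The excess was spread over cells: at 1500 UMIs, Ifitm3 was detected in 12.5% and 25.4% of basal cells of the corneas and in 7.32% and 25.7% of those of the CRIC libraries. With Krt14 of at least 5 UMIs Ifitm3 did not pass. Without the 4% of cells with most of its UMIs the difference was 2.12 and still passed. It was 1.81 and did not pass (adjusted p = 0.142) without the CRIC KO library. Free RNA held more Ifitm3 than basal cells everywhere, at 745 and 907 CPM in the 6-month corneas and 205 and 691 CPM in the CRIC libraries, so it too was higher on the KO side; its part was not tested.

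Isg15, a ubiquitin-like modifier that interferon induces, stood at 53.0 and 38.3 CPM at 2 months, 24.2 and 89.2 CPM at 6 months and 29.0 and 413 CPM in the CRIC libraries. The 6-month log2 difference was 2.58 (edgeR's quasi-likelihood test, adjusted p = 1.58e-11). In the CRIC KO library 278 of its 310 UMIs lay in 3 cells, and without the 4% of cells with the most UMIs the difference was 1.65 and did not pass. Ifit1 and Ifit3, RNA-binding proteins of the same response and related in sequence, showed the same concentration. Ifit1 had 45 of 46 UMIs and Ifit3 had 37 of 39 UMIs of the CRIC KO library in 3 cells each. Of the 19 interferon and antigen presentation genes, 12 were tested at 6 months, 11 were higher in KO and 8 had an unadjusted p under 0.05 (1.9% of all genes in that direction). Their median log2 difference was 1.13 against 0.01 over all genes, and the 3 that passed were Isg15, Ifit1 and Ifit3. The CRIC KO basal cells were also those with 1763 CPM of immune genes. Of the 11 calls, S100a9, Isg15, Fgfbp1 and Ifitm3 passed after cells with an immune UMI were left out.

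Isg15, Ifit1 and Ifit3 also share letters upstream of their starts. The interferon response element (TTTC, any 2 bases, TTTC), searched on both strands in the 250 bases before the RefSeq start, occurred in 8 of 16 interferon and antigen presentation genes with an entry (50%) and in 936 of 27025 genes (3.46%). That list was made of genes known for this response, so its higher share is a description and not a test. Of the 8 genes called at 6 months that have an entry, 4 held it: Gpha2 and, from that same list, Isg15, Ifit1 and Ifit3. The motif was chosen after the values were seen. The 160 bases before the start are shown with matches on either strand in capitals, at chr4:156200819-156200978 (minus strand) for Isg15, chr19:34640729-34640888 (plus) for Ifit1 and chr19:34583369-34583528 (plus) for Ifit3.
Isg15: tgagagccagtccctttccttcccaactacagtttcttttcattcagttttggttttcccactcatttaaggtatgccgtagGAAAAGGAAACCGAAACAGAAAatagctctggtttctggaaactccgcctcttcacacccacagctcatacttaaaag
Ifit1: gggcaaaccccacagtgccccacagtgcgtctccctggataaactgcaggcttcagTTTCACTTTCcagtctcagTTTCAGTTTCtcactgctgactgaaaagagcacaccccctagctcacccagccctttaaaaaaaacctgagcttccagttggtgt
Ifit3: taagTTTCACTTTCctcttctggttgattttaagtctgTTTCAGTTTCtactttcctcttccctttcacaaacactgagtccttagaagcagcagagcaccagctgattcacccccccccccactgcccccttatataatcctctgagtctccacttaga
Isg15 held 3 overlapping matches in its window, and Ifit1 and Ifit3 held 2 each.

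Fgfbp1 at 6 months differed by 1.54 with a standard error of 0.291 (edgeR's quasi-likelihood test, adjusted p = 0.000145). It was detected at 1500 UMIs in 15.5% and 30.3% of basal cells of the corneas and in 4.88% and 20.3% of those of the CRIC libraries. Free RNA held 21.1 to 93.9 CPM, below the KO basal level. Fgfbp1 did not pass at 6 months with Krt14 of at least 5 UMIs. The difference kept its direction without each of the 4 libraries, at 1.37 to 1.79, but passed in none of those fits (adjusted p from 0.138 to 0.403). Fgfbp1 was also among the 7 of 8985 genes (0.0779%) whose 6-month genotype difference was not the same in basal and other epithelial cells: its term was 0.96 with a standard error of 0.231 (edgeR's quasi-likelihood test, adjusted p = 0.0405). Other epithelial cells carried more Fgfbp1, at 245 and 365 CPM in the corneas and 394 and 543 CPM in the CRIC libraries. For Isg15 and Ifitm3 that term did not pass (adjusted p = 1 for each). In simulated counts this test recovered 17% of 2-fold and 82% of 4-fold changes.

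The remaining calls at 6 months rested on few cells or on 1 library. S100a9, a calcium-binding alarmin of neutrophils and stressed epithelium, was at 5.70 and 47.5 CPM in the corneas and at 0 and 419 CPM in the CRIC libraries, the latter from 9 cells. Free RNA held it at 768 and 309.9 CPM and at 70.5 and 202 CPM, and its part was not tested. Krt15 was lower in KO (log2 -3.36) through the 3 cells of the CRIC WT library, and its difference was 1.02 without that library. A2m, a protease inhibitor, was at 0 in the CRIC WT library, and its 114 UMIs in the CRIC KO library lay in 2 cells. Krt16, a stress keratin, stood at 2.14 and 28.2 CPM and at 0 and 22.6 CPM. Pmvk, an enzyme of sterol synthesis, stood at 17.8 and 77.3 CPM and at 14.5 and 30.6 CPM. Gpha2, a glycoprotein hormone subunit used as a limbal marker, stood at 73.4 and 43.1 CPM and at 203 and 42.6 CPM, with 36 of 42 UMIs of the CRIC WT library in 3 cells.

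**Figure D5:**
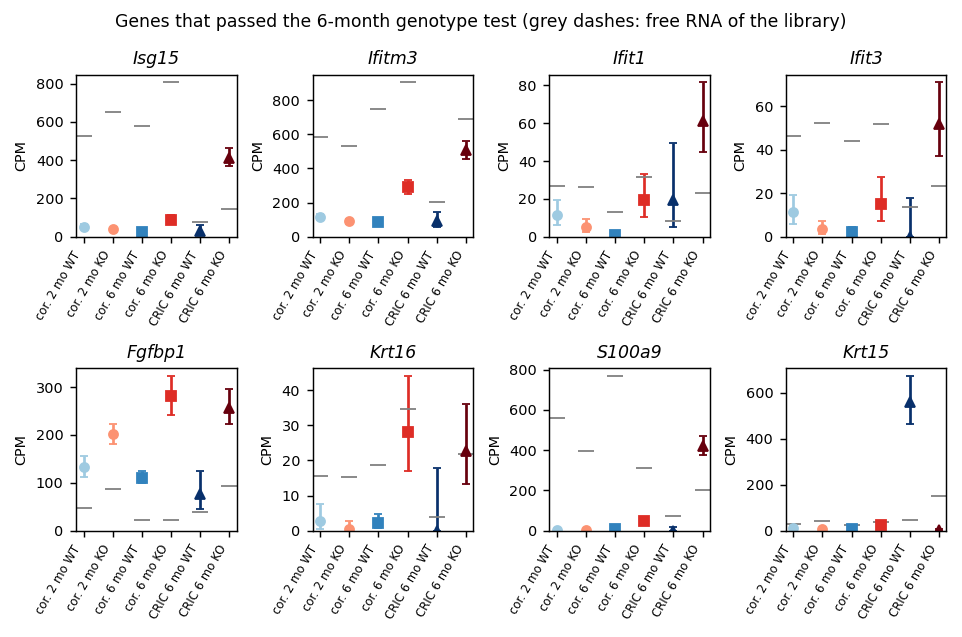
CPM of 8 of the genes that passed the added 6-month test, in basal cells of each library with exact Poisson 95% intervals, and in free RNA of the same library (grey dashes). Ifitm3 and Fgfbp1 are higher in both 6-month KO libraries, Isg15 and S100a9 are highest in the CRIC KO library, and Krt15 is high in the CRIC WT library alone.

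Whether the genotype difference itself depended on age was tested over all 6 libraries, in a fit also added after the data were seen. Of 8405 genes, 2 passed (0.0238%), and 83 had an unadjusted p under 0.05 (0.988%). The KO to WT log2 ratio of Isg15 was -0.47 at 2 months, 1.88 in the 6-month corneas and 3.83 in the CRIC pair. Its difference between 6 and 2 months was 3.12 with a standard error of 0.56 (edgeR's quasi-likelihood test, adjusted p = 0.000229). For Ifitm3 the ratios were -0.36, 1.75 and 2.46, and the difference was 2.50 with a standard error of 0.486 (edgeR's quasi-likelihood test, adjusted p = 0.00124). Both passed in cells without an immune UMI and in cells with Xist and no Y-linked UMI. Without the 4% of cells with the most UMIs of each gene, Ifitm3 passed at 2.60 (adjusted p = 0.0108), while Isg15 had 1.54 and did not. The 2-month side of this test was 1 pair, and in simulated counts it recovered 1% of 2-fold and 21% of 4-fold changes.

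Finally, basal levels were set beside pairing with the deleted microRNAs. Of 8331 tested genes with an annotated 3' untranslated region (GENCODE M21), 813 (9.76%) held an exact 8-base match to at least 1 of the 3 seeds, that is GTGCCATA (miR-183), GTGCCAAA (miR-96) or TTGCCAAA (miR-182). Their median KO minus WT log2 difference in the corneas was -0.03, against 0.01 for genes without a match, and 45.4% against 50.7% were higher in KO. Genes with a match had longer untranslated regions (median 2532 against 1090 bases), and a match does not show that the microRNA acts there. Of 23 genes described elsewhere as targets, 18 were tested, 4 were higher and 14 lower in KO, with a median of -0.18 and 0 at an unadjusted p under 0.05. Sites in Aqp5 and Ezr, the most abundant of these with a match, and in Rac1, which adds a miR-182 site, are shown with the match in capitals (mm10, 5' to 3' on the mRNA strand), at chr15:99594640-99594661 (plus strand) in Aqp5, chr17:6738979-6739000 and chr17:6739101-6739122 (both minus) in Ezr, and chr5:143506692-143506713 (minus) in Rac1.
Aqp5 (miR-96-5p): symbol  mirna        
Aqp5    mmu-miR-96-5p    atctcatGTGCCAAAgccttcc
Name: printed, dtype: object
Ezr (miR-183-5p): symbol  mirna         
Ezr     mmu-miR-183-5p    ctcacggGTGCCATActtttct
Name: printed, dtype: object
Ezr (miR-96-5p): symbol  mirna        
Ezr     mmu-miR-96-5p    tcacataGTGCCAAAcaggtca
Name: printed, dtype: object
Rac1 (miR-182-5p): symbol  mirna         
Rac1    mmu-miR-182-5p    ttaaaaaTTGCCAAAatacctt
Name: printed, dtype: object
Aqp5 stood at 2842 and 3945 CPM in the WT and KO corneas at 2 months, 3174 and 3404 CPM at 6 months and 2637 and 3706 CPM in the CRIC libraries. It was higher in KO in each pair, with a log2 difference of 0.34 and a standard error of 0.205 in the corneas that did not pass. Ezr, which links actin to the membrane, stood at 241 and 254, 235 and 189, and 198 and 221 CPM, with a log2 difference of -0.06. Rac1, a GTPase of cell migration, gave 78.3 and 77.1, 78.4 and 55.0, and 179 and 145 CPM.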

How the data were processed

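Single cells were measured in 6 droplet libraries, 1 per group, made with the version 2 kit per the labels. The deposited files hold raw UMI counts per gene and barcode for all 31053 features; their headers name Cell Ranger 6.0.1, the submitters' processing notes name Cell Ranger 2.1.1 and mm10, and no source used here states the alignment settings or the annotation. Basal cells, markers and gene lists were chosen with earlier results of these data known.

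Counts were summed over basal cells of each library and tested with edgeR 4.0.16 (R 4.3.3; TMM, filterByExpr, quasi-likelihood test, Benjamini-Hochberg over all genes tested, adjusted p under 0.05) over the 4 cornea libraries with age and genotype. Class terms used sums of basal and other epithelial cells with library as a block. Each test was checked on simulated data, where 2-fold changes were recovered at 71%, 69%, 68%, 64%, 22.2%, 17% and 1% (genotype, age, class by genotype, class by age, genotype at 6 months, its class term, and 6 minus 2 months). The simulated counts of a test gave all genes the same dispersion, so recovery in the data may be lower. The 6-month and age-dependence fits were added after the data were seen. Alternatives were DESeq2 1.42.0, RLE scaling, other filters, cell limits and thinning, and leaving out libraries. A fit without 1 cornea held only the term under test, of age or of genotype. A 6-month fit without 1 library held no pair block.

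Named genes were up to 12 per direction past the test with the same sign in both pairs and a mean of at least 10 CPM. Where fewer than 6 passed, values of at least 50 CPM and 1 log2 in both pairs were given as not passed. Class terms allowed 6 per direction, and levels, ratios and variation took 15, 15 and 10 genes. List members are named by what they are known for. No doublet caller was run, and 19.5% of CRIC KO basal cells held an immune UMI. Exact intervals are 95% and cover counting error only, and depth was 207040 to 2804858 UMIs over the basal cells of a library. Values were computed with Python 3.11.15, numpy 2.4.6, scipy 1.17.1, pandas 2.3.3 and matplotlib 3.10.9.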

Additional observations from a re-analysis of the deposited data

Results flagged for a closer look

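The basal share of epithelial cells was higher in KO than in WT by 1.29 percentage points in the 2-month cornea and by 0.961 points in the CRIC pair, while the difference was -2.79 points in the 6-month cornea. With 1 library per group this change of sign was not tested.

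Of the 7 genes whose KO minus WT difference was not the same in basal and other epithelial cells of the corneas, by edgeR's quasi-likelihood test, 6 fell under the naming rule: S100a9 (log2 term 3.16), Krt15 (2.45), Yae1d1 (1.45), BC100530 (1.33), Krt6a (1.27) and Dnajc5 (1.18). Without the 6-month KO cornea the terms of S100a9 and Krt15 were 0.773 and 1.42 and did not pass, and in that library most of their UMIs lay in 1 cell each. Of the 29 genes whose age difference was not the same in both classes, the naming rule took 12: H60c (2.18), Krt6a (1.66), BC100530 (1.58), Muc15 (1.26), Pdzk1ip1 (1.25) and Abhd5 (1.19) with higher terms. The 6 with lower terms were Itga2 (-1.57), Wnt10a (-1.23), Jag2 (-1.02), Bcam (-0.92), Antxr1 (-0.81) and Lsamp (-0.70). At 6 months the class-by-genotype term over the cornea and CRIC pairs was 4.07 for S100a9, 4.52 for Cd74, 0.96 for Fgfbp1, -4.02 for Akr1b7, -1.74 for Ifitm1, -4.77 for Krt15 and -2.31 for Gpha2.

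The KO minus WT difference at 6 months exceeded that at 2 months by 3.12 for Isg15 and by 2.50 for Ifitm3 on the log2 scale. Basal cells of the KO cornea at 2 months, labelled female, held 111 UMIs of Y-linked genes, and those of the 5 other libraries held 0.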

How the results depend on the processing

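Each group held 1 library, and the tests had 1 residual degree of freedom. Fits without 1 cornea held only the term under test, and 6-month fits without 1 library held no pair block. Their values below thus come from a smaller model than the main test. No paired analysis by replicate number was possible because the labels give no shared numbers; the blocks used here pair the WT and KO libraries of 1 tissue and age. For genotype in the corneas (0 calls), the count was 8 without a low-count filter, 3 after thinning to 1500 UMIs, 5 with at least 5 Krt14 UMIs, 1 with 6 libraries in 3 blocked pairs, 11 over the 6-month pairs, 3 without the 4% of cells with the most UMIs of each gene, and 0 to 119 without a library (119 without the 2-month KO cornea, 15 without the 6-month KO cornea, 4 without the 2-month WT cornea). For age (0 calls), it was 8 with RLE scaling, 39 without the filter, 8 with the 10% mitochondrial limit, 5 after thinning, 20 with at least 5 Krt14 UMIs, 9 with age alone, 18 without the top 4% of cells, and 3 to 179 without a library (179 without the 6-month WT cornea, 64 and 19 without the 6-month KO and 2-month WT corneas, 3 without the 2-month KO cornea). The class-by-genotype count of 7 was 1 after thinning, 1 without the top 4% of cells, and 0 to 7 without a library (0 without either WT cornea, 4 without the 6-month KO cornea). The class-by-age count of 29 was 16 without the filter, 7 after thinning (4 of them shared), 16 without the top 4% (13 shared), and 14 to 29 without a library (14 and 16 without the 2-month KO and WT corneas). The 6-month count of 11 was 4 without cells with an immune UMI, 1 with at least 5 Krt14 UMIs, 2 with DESeq2, 3 without the top 4%, and 1 to 25 without a library (1 without CRIC KO, 17 without the 6-month KO cornea, 25 without either WT library); the 6-minus-2-month count of 2 was 1 without the top 4%. Basal shares with at least 5 Krt14 UMIs were 1.94%, 3.26%, 7.49%, 4.68%, 3.17% and 6.45%, and after thinning 2.74%, 4.29%, 8.34%, 6.64%, 4.62% and 4.72% (corneas at 2 and 6 months, then CRIC, WT before KO); fewer cells meet the stricter limits by construction. Signs reversed for the class-by-genotype terms of Krt15 after thinning (-2.62), Yae1d1 without the 2-month KO cornea (-0.918; up to 2.88 without the 6-month WT cornea), and BC100530 (-0.14) and Krt6a (-0.478) without the 6-month KO cornea (up to 2.21 and 2.36 without the 2-month KO cornea), and for the 6-month differences of A2m without the top 4% of cells (-0.225) and Krt15 without CRIC WT (1.02; -7.46 without the 6-month KO cornea). The cause of these changes was not tested otherwise. Of the values of single genes under alternatives, 356 kept direction and side of the threshold, 146 no longer passed, 87 newly passed, 8 moved and 6 reversed.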
